A study of Rattus norvegicus with 15 samples.

Results

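NRF2, encoded by Nfe2l2, and 9 genes of the antioxidant response were described by name in RNA-seq counts of rat H9c2 cells. The listed genes were Nfe2l2, Nqo1, Hmox1, Gclc, Gclm, Txnrd1, Srxn1, Sod1, Sod2 and Cat. Of these 10 genes, 9 were among the 11574 genes of the count table, which was limited to genes whose counts over the 15 libraries add up to more than 20, and Srxn1 was not analysed here. H9c2 is an established myoblast line from rat myocardium, labelled WT, that forms myotubes when serum is lowered. The cell line field of the labels numbers on from H9c2 sample by sample, while every sample title reads H9c2. Cells were left to attach for 24 h in medium with 10% fetal bovine serum, and serum was then lowered to 1%. The 5 groups were T0, harvested on day 0 without retinoic acid (RA), T7-RA and T14-RA, harvested on days 7 and 14 without RA, and T7+RA and T14+RA, which received 1 µM all-trans RA each day. Each group held 3 cultures. The RA was dissolved in DMSO, and whether the cultures without RA received DMSO is not given in the sources used here. The labels count days of treatment, while the study's figure legends count all 3 times from seeding and set T0 at 24 h, so that low serum may have lasted a day less than the day number. The serum of the T0 cultures at harvest is not given in the sources used here, so culture time and the lowering of serum cannot be told apart in comparisons with T0.

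NRF2 is a transcription factor that is held in the cytoplasm and marked for degradation by KEAP1 and CUL3. When oxidants or electrophiles modify KEAP1, NRF2 accumulates, pairs with small MAF proteins and activates genes that carry an antioxidant response element (ARE). These genes make glutathione, reduce thioredoxin and quinones, and break down heme. Superoxide dismutases and catalase remove superoxide and hydrogen peroxide, and in muscle, where mitochondria are abundant, the mitochondrial dismutase SOD2 is the main guard of the matrix.

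The promoter windows below are those of Nqo1, Sod2 and Txnrd1, the members with the largest RA change, the largest rise at day 14 and a fall at both days, respectively. They are RefSeq sequences of the GRCr8 assembly, run from 250 bases before the start of transcription to 50 bases after it, and capitals mark matches to the ARE core, TGACNNNGC, on either strand. Txnrd1 has 2 annotated windows, and the one with a match is shown.
Nqo1, chr19:52220218-52220517, minus strand: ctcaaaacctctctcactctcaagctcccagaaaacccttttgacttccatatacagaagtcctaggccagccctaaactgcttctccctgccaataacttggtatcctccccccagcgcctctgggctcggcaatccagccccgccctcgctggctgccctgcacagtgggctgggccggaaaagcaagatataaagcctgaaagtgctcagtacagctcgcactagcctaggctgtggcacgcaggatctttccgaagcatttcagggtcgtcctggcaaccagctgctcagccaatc
Sod2, chr1:50050119-50050418, minus strand: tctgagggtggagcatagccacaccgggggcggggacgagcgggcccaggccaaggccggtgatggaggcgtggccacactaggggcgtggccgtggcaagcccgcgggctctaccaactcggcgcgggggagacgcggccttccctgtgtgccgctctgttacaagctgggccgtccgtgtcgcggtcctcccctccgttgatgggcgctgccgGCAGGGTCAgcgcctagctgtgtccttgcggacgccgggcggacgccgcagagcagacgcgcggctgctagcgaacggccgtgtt
Txnrd1, chr7:22755855-22756154, minus strand: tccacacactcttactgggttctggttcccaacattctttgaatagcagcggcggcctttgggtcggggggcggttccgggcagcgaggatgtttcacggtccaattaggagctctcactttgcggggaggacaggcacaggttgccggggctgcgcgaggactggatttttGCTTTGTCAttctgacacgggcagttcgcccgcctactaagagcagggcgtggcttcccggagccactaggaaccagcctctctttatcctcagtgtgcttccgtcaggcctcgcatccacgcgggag

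RefSeq windows were found for 8 of the 9 genes (Hmox1 had none), and 4 of these genes, Nfe2l2, Gclm, Txnrd1 and Sod2, held an ARE core match. Among all 33469 rat promoter windows, 12.1% held a match. Counting the start base as 0, the match began at −35 in Sod2 and at −78 in Txnrd1, in both cases on the opposite strand, and read TGACCCTGC and TGACAAAGC there. In Gclm the match began at −172 and read TGACTAAGC on the opposite strand, and in Nfe2l2 it began at 38 and read TGACGCCGC. The window of Nqo1 held no match to these letters, and bases more than 250 before the start were not searched in any gene. The retinoid half-site letters AGGTCA, searched on both strands, were found in the window of 1 of the 8 genes, Cat, and in 16.2% of all windows. These matches describe letters in a window and not bound sites.

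Counts per library ranged from 508397 to 1030820. The 3 T0 libraries detected fewer genes (10831 to 11094) than the other 12 (11262 to 11482), gave a larger share of their counts to their 20 most abundant genes (11.8% to 13.6% against 8.46% to 10.1%) and had lower TMM factors (0.9384 to 0.9652 against 0.9972 to 1.033). Of 9 muscle cell markers 7 were measured, all but Myf5 and Myf6. Their summed level was 826 to 859 CPM at T0, 1040 to 1120 at day 7 and 1400 to 1450 at day 14 without RA, and 1020 to 1070 at day 7 and 994 to 1130 at day 14 with RA, so that T14-RA was highest and T0 lowest. The markers did not go one way, since from T0 to T14-RA mean Myog went from 48.6 to 638 CPM, Cdh15 from 638 to 324 and Myod1 from 115 to 80.2. With RA at day 14, mean Chrna1 was 26.2 CPM against 160 without RA, and Mymk 26.6 against 123, while Des (39.5 against 40.3), Ckm (70.8 against 63.3) and Myog (569 against 638) were closer. Of 8 cardiomyocyte markers, Gata4 and Pln were measured, at 8.28 to 34.8 CPM together, and Nppa, Nppb, Myh6, Tnni3, Ryr2 and Nkx2-5 were not among the genes of the table. Of 5 fibroblast markers, Col1a1, Dcn and Lum were measured, and their sum, nearly all of it Col1a1, was 24300 to 37300 CPM at T0 and 18300 to 25600 in the other groups. Dcn and Lum had 0 counts in all T0 libraries, and at day 14 Dcn averaged 50.5 CPM without RA and 120 with RA while Lum averaged 28.5 without and 6.24 with RA. Endothelial Tek (0 to 6.29 CPM) and leukocyte Cd14 (10.5 to 58.1 CPM, highest in T14+RA) were the single measured genes of 4 listed for each of those cells. The part of these marker differences in the results below was not tested, and in bulk RNA fewer cells of a type and less RNA per cell cannot be told apart.

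Levels are given as CPM, TMM-scaled counts relative to library size, for replicates 1, 2 and 3 in that order. T7, T14 and RA terms come from an additive edgeR model over all libraries, in which T7 and T14 are changes against T0 and RA is the mean change over both days. RA changes at single days come from a second edgeR model of the 5 group means. A gene was called at a Benjamini-Hochberg adjusted p under 0.001 over all 11574 genes, or under 0.05 for the difference between days. Differences are log2 fold changes with standard errors (SE). At T7, 2 of the 9 genes were called, both lower (Hmox1 and Txnrd1), against 8.73% of all genes (4.29% higher and 4.44% lower). This T7 count was 1 without T0 replicate 1 or T7-RA replicate 3 and 4 without T14+RA replicate 3, where 5.66%, 6.46% and 8.8% of all genes were called. At T14, 5 of the 9 were called, against 17.3% of all genes (8.47% higher and 8.85% lower), with Nfe2l2 and Sod2 higher and Nqo1, Hmox1 and Txnrd1 lower. Without T0 replicate 1 this T14 count was 3, against 13.4% of all genes. For RA, 1 of the 9, Nqo1, was called, and it was lower, against 6.39% of all genes (3.33% higher and 3.07% lower). Every member but Gclm had at least 10 counts in every library. Among the 5931 genes with that many, larger shares were called, 13.7% at T7, 25.1% at T14 and 8.48% for RA. When T7-RA and T14-RA were compared with T0 alone, a choice made after seeing the data, 3 members (Hmox1, Nqo1 and Txnrd1, all lower) were called at day 7, against 8.78% of all genes (4.23% higher and 4.54% lower). At day 14, 4 were called in that comparison (the same 3 lower and Sod2 higher), against 15.7% (7.83% higher and 7.84% lower). With the threshold set at 0.05 instead, 6 of the 9 genes were called at T7, 8 at T14 and 4 for RA, against 23.1%, 35.4% and 14.7% of all genes, and 2 at each single day of RA, against 7.41% at day 7 and 11.2% at day 14. The median log2 fold change of the 9 genes was 0.08 at T7, −0.60 at T14 and 0.09 with RA, while the medians of all genes were 0.02, 0.05 and −0.01.

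**Figure D1:**
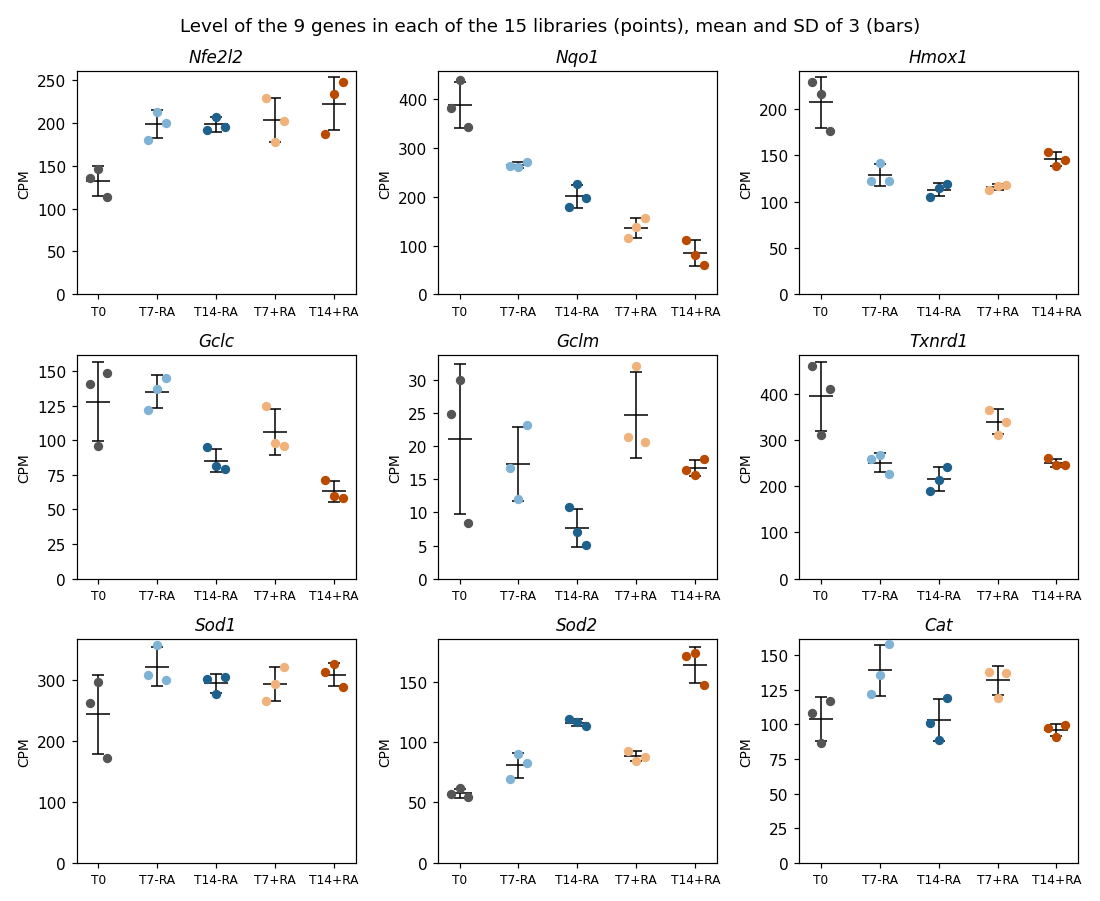
Level in CPM (vertical axis, from 0) of each of the 9 genes in the 5 groups (horizontal axis). Points are the 3 libraries of a group, and bars give their mean and SD. Group means of Nqo1 go from 388 CPM at T0 to 84.5 in T14+RA, and those of Sod2 from 57.7 to 164.

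Nfe2l2 (ENSRNOG00000001548, 3q23), the transcript of NRF2 itself, was higher at days 7 and 14 than at T0. Its level was 135, 146 and 113 CPM at T0, 180, 212 and 200 in T7-RA, and 191, 207 and 195 in T14-RA. With RA it was 228, 177 and 202 CPM at day 7 and 187, 233 and 247 at day 14. Every T0 library lay below every library of the other groups, while the 4 later groups overlapped one another in order of level. The T14 change was 0.61 (SE 0.139, edgeR BH-adjusted p = 0.000352), and the T7 change was 0.55 (SE 0.137, edgeR BH-adjusted p = 0.00193) and was not called. The T14 call was lost without T0 replicate 1 (adjusted p = 0.00183), T0 replicate 3 (0.00449) or T14-RA replicate 2 (0.00118), and it was also lost when T14-RA was compared with T0 alone (edgeR BH-adjusted p = 0.00113). RA gave a change of 0.09 (SE 0.0943, 95% interval −0.10 to 0.28, edgeR BH-adjusted p = 0.617).

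Nqo1 (ENSRNOG00000012772, 19q12) encodes NAD(P)H quinone dehydrogenase, a 2-electron reductase that is a standard readout of NRF2. It was lower with time and lower again with RA. Its level was 381, 439 and 344 CPM at T0, 264, 261 and 272 in T7-RA and 179, 227 and 198 in T14-RA. Under RA the values were 115, 138 and 156 CPM at day 7 and 112, 81.7 and 59.8 at day 14. The 5 groups did not overlap, with T0 highest, then T7-RA, next T14-RA, next T7+RA, and T14+RA lowest, so that each T7+RA culture was below each T14-RA culture. The T7 change was −0.51 (SE 0.125, edgeR BH-adjusted p = 0.00147) and was not called. By T14 it fell by 50.2% (SE 0.128 on the log2 scale, edgeR BH-adjusted p = 3.44e-09), and with RA the change was −1.06 (SE 0.108, edgeR BH-adjusted p = 7.61e-12). The RA change was −0.96 at day 7 (SE 0.14, edgeR BH-adjusted p = 2.74e-07) and −1.17 at day 14 (SE 0.156, edgeR BH-adjusted p = 2.09e-08), and at each day it was the only call among the 9 genes, against 3.17% of all genes called at day 7 (1.87% higher and 1.3% lower) and 4.81% at day 14 (2.46% higher and 2.35% lower). The difference between the days was −0.21 (95% interval −0.63 to 0.22, edgeR BH-adjusted p = 0.879). The mean level was 388 ± 48 CPM (SD, n = 3) at T0 and 84.5 ± 26.1 in T14+RA.

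Hmox1 (ENSRNOG00000014117, 19p11) encodes heme oxygenase 1, which breaks heme down to biliverdin, iron and carbon monoxide. It was highest at T0, with 229, 216 and 176 CPM. It was at 122, 142 and 122 CPM at day 7 without RA and 105, 115 and 119 at day 14, and at 113, 117 and 118 in T7+RA and 154, 138 and 145 in T14+RA. Every T0 library exceeded every later library, and the cultures with RA were below those without RA at day 7 but above them at day 14. The changes in the additive model were −0.82 at T7 (SE 0.138, edgeR BH-adjusted p = 4.82e-06) and −0.75 at T14 (SE 0.14, edgeR BH-adjusted p = 1.72e-05), and the T14 call was lost without T0 replicate 1 (−0.65, adjusted p = 0.00153). Those terms also draw on the cultures with RA. In the cultures without RA compared with T0 alone, Hmox1 changed by −0.70 at day 7 (edgeR BH-adjusted p = 5.94e-05) and by −0.90 at day 14 (edgeR BH-adjusted p = 5.1e-07). The RA change was −0.15 at day 7 (edgeR BH-adjusted p = 0.702) and 0.39 at day 14 (edgeR BH-adjusted p = 0.0749). The difference of 0.54 between the days (SE 0.206, unadjusted p = 0.0109 in edgeR) was not called after adjustment (adjusted p = 0.36). None of the 9 genes passed this test in edgeR, DESeq2 or limma-voom, against 0.743% of all genes in edgeR (0.285% higher and 0.458% lower). Hmox1 was the 1 gene of the 9 at an unadjusted p under 0.05 in edgeR, a cut for which the share of all genes was not computed.

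Glutathione synthesis starts with glutamate-cysteine ligase, whose catalytic subunit is encoded by Gclc (ENSRNOG00000006302, 8q31) and whose modifier subunit is encoded by Gclm (ENSRNOG00000013409, 2q41). Gclc was at 141, 95.7 and 149 CPM at T0, 122, 137 and 145 in T7-RA and 94.9, 81.5 and 79.6 in T14-RA. With RA it was at 125, 98 and 96 CPM at day 7 and 71.4, 59.7 and 58 at day 14. T14+RA was the lowest group and did not overlap with T14-RA above it, while T7+RA, T0 and T7-RA overlapped. The Gclc changes were 0.08 at T7 (edgeR BH-adjusted p = 0.763), −0.60 at T14 (SE 0.161, edgeR BH-adjusted p = 0.00216) and −0.37 with RA (SE 0.122, edgeR BH-adjusted p = 0.0295), none of them called.

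Gclm had the fewest counts of the 9 genes, 3 to 24 per library. Its level was 24.8, 30 and 8.38 CPM at T0, 16.7, 12.1 and 23.2 in T7-RA and 10.8, 7.08 and 5.08 in T14-RA. The cultures with RA had 21.4, 32.2 and 20.6 CPM at day 7 and 16.4, 15.7 and 18.1 at day 14. T14-RA was the lowest group and did not overlap with T14+RA. The Gclm changes were −0.44 at T7 (edgeR BH-adjusted p = 0.392), −1.21 at T14 (SE 0.381, edgeR BH-adjusted p = 0.00908) and 0.72 with RA (SE 0.271, 95% interval 0.18 to 1.27, edgeR BH-adjusted p = 0.0629), none of them called. The RA values of the ligase subunits thus had opposite signs, −0.37 for Gclc and 0.72 for Gclm.

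Txnrd1 (ENSRNOG00000009088, 7q13) encodes the cytosolic thioredoxin reductase, a selenoprotein that uses NADPH. Its level was 459, 311 and 411 CPM at T0, 258, 267 and 227 in T7-RA and 190, 213 and 242 in T14-RA. In RA medium its level was 365, 311 and 339 CPM at day 7 and 261, 245 and 245 at day 14. It fell by 0.61 at T7 (SE 0.118, edgeR BH-adjusted p = 6.87e-05) and by 0.95 at T14 (SE 0.12, edgeR BH-adjusted p = 2.94e-09). The T7 call was lost without T0 replicate 1 (−0.46, adjusted p = 0.0104) or T7-RA replicate 3 (−0.54, adjusted p = 0.00123). The cultures with RA lay above those without RA of the same day and did not overlap with them at either day, but the RA change of 0.34 was not called (SE 0.0922, edgeR BH-adjusted p = 0.00614). At day 7 the RA change was 0.43 (edgeR BH-adjusted p = 0.0132), and day 14 gave 0.24 (edgeR BH-adjusted p = 0.29).

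Of the dismutases, Sod2 was called at T14 and Sod1 was not, and the difference between them was not tested. Sod2 (ENSRNOG00000019048, 1q11), the manganese enzyme of the mitochondrial matrix, was at 56.6, 61.9 and 54.5 CPM at T0, 69.2, 90 and 82.8 in T7-RA and 119, 117 and 113 in T14-RA. The cultures with RA had 92.7, 84.6 and 87.4 CPM at day 7 and 171, 174 and 147 at day 14. T0 was below all other groups, the groups of day 7 overlapped, and T14+RA was above T14-RA without overlap. Sod2 rose by 1.10 at T14 (SE 0.173, edgeR BH-adjusted p = 5.35e-07). The T7 change of 0.37 was not called (edgeR BH-adjusted p = 0.132). RA gave a change of 0.34 (SE 0.112, edgeR BH-adjusted p = 0.0277), with 0.13 at day 7 (edgeR BH-adjusted p = 0.785) and 0.50 at day 14 (edgeR BH-adjusted p = 0.0121), none of them called.

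Sod1 (ENSRNOG00000002115, 11q11), the copper-zinc enzyme of the cytosol, was at 262, 296 and 172 CPM at T0, 307, 357 and 299 in T7-RA and 301, 276 and 305 in T14-RA. Cultures given RA had 265, 293 and 321 CPM at day 7 and 312, 325 and 288 at day 14. Neighbouring groups overlapped throughout the order of their means, but T7-RA, the highest, lay above T0, the lowest, without overlap. The changes were 0.34 at T7 (95% interval 0.08 to 0.59, edgeR BH-adjusted p = 0.0443), 0.32 at T14 (0.06 to 0.57, edgeR BH-adjusted p = 0.0481) and −0.04 with RA (−0.22 to 0.15, edgeR BH-adjusted p = 0.882). Cat (ENSRNOG00000008364, 3q32) encodes catalase, the peroxisomal enzyme that splits hydrogen peroxide. Its level was 108, 86.3 and 117 CPM at T0, 122, 136 and 158 in T7-RA and 101, 88.6 and 119 in T14-RA. Cultures given RA had 138, 119 and 137 CPM at day 7 and 97.4, 91.2 and 99.7 at day 14. The groups of day 7 lay above T0 without overlap, and T14-RA, T14+RA and T0 overlapped. The T7 change was 0.42 (SE 0.151, edgeR BH-adjusted p = 0.0381), the T14 change −0.02 (95% interval −0.34 to 0.29, edgeR BH-adjusted p = 0.939) and the RA change −0.08 (−0.30 to 0.14, edgeR BH-adjusted p = 0.73), with a T14 change of 0.09 when only library size was scaled.

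**Figure D2:**
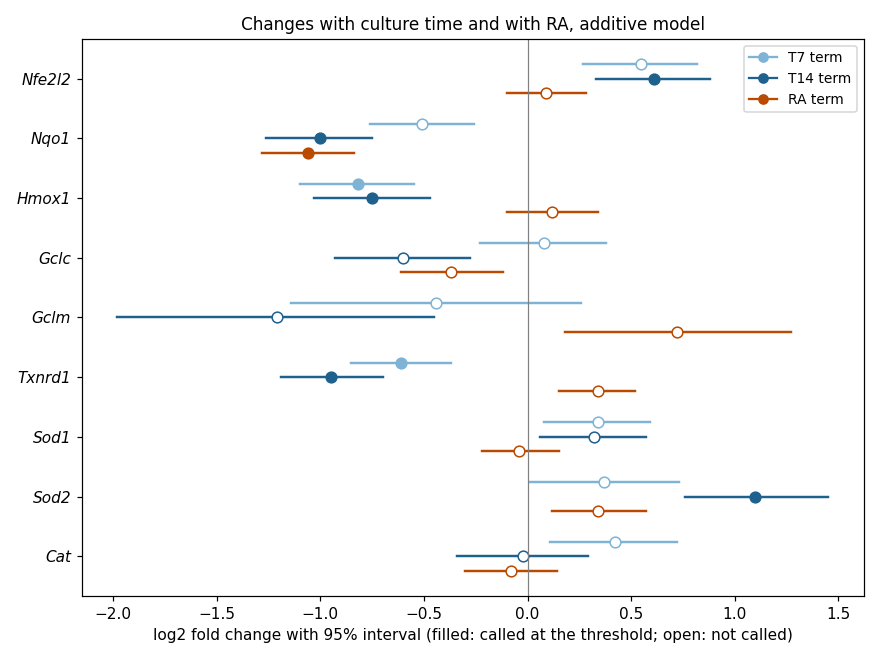
Log2 fold change (horizontal axis) of each gene for the T7, T14 and RA terms of the additive model, with 95% intervals. Filled points are called at an adjusted p under 0.001, and Nqo1 is the 1 gene with a filled RA point, at −1.06.

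**Figure D3:**
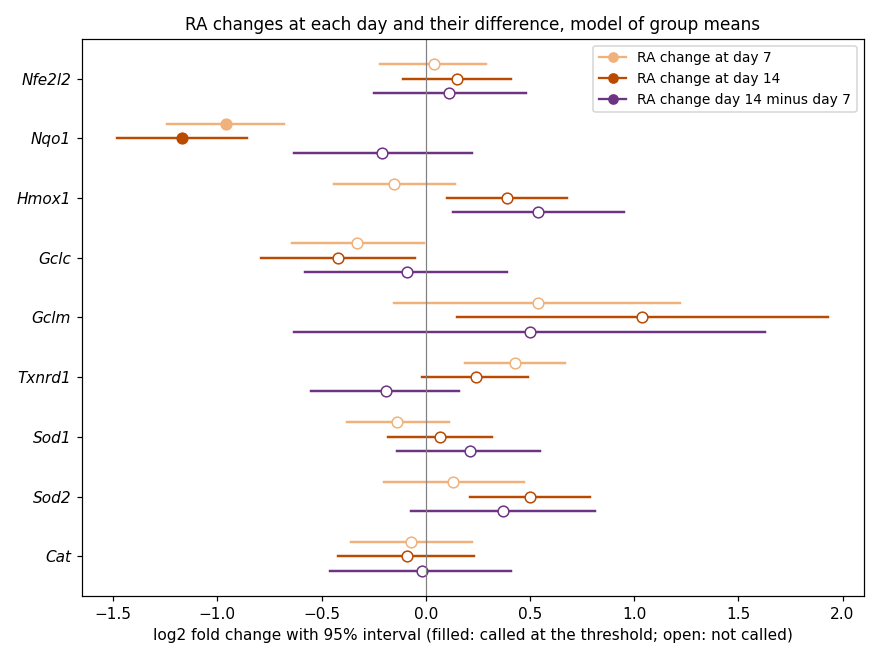
Log2 fold change (horizontal axis) with RA at day 7, at day 14 and their difference, with 95% intervals. Filled points are called at an adjusted p under 0.001, or under 0.05 for the difference, and only both single-day changes of Nqo1, −0.96 and −1.17, are filled.

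From T7-RA to T14-RA, none of the 9 genes was called in edgeR, DESeq2 or limma-voom, against 2.95% of all genes in edgeR (1.87% higher and 1.09% lower). Unadjusted edgeR p-values were under 0.05 for 5 of the 9, and the share of all genes under that cut was not computed. With the threshold at 0.05 after adjustment in edgeR, which 7.79% of all genes passed, Gclc was lower (−0.64, adjusted p = 0.00596), Nqo1 was lower (−0.41, adjusted p = 0.0421) and Sod2 was higher (0.54, adjusted p = 0.0218) in this second week without RA. Gclc stayed under 0.05 in every alternative (adjusted p up to 0.0434), while Nqo1 reached 0.299 without T14-RA replicate 1 and 0.192 in DESeq2, and Sod2 reached 0.181 without T7-RA replicate 1 and 0.175 with thinned counts.

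A length in bases is deposited with each gene, and how it was derived is not given in the sources used here. Divided by it, the mean levels at T0 in CPM per kilobase were 371 for Sod1, 246 for Nqo1, 132 for Hmox1, 115 for Txnrd1, 57 for Nfe2l2, 42.2 for Gclc, 40.9 for Cat and 27.9 for Sod2, with Gclm lowest. In T14+RA the order was Sod1 (470), Nfe2l2 (96.3), Hmox1 (93.2), Sod2 (79.5), Txnrd1 (73), Nqo1 (53.5), Cat (37.8), Gclc (20.7) and Gclm (11.3). Several neighbours in these orders differed by less than the larger of their SDs over 3 cultures. At T0 these were Hmox1 and Txnrd1 (SD 17.6 and 22) and Gclc and Cat (SD 9.4 and 6.26). In T14+RA they were Nfe2l2 and Hmox1 (SD 13.5 and 5.14), Sod2 and Txnrd1 (SD 7.26 and 2.77), and Nqo1 and Cat (SD 16.6 and 1.75).

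Among the 6390 genes with a mean of at least 20 counts, those whose log2 CPM followed each member most closely over the 15 libraries were named by Pearson's r, as a description only, since the libraries share groups, culture times and depth. For Nqo1 they were Vim (r = 0.964), Lmna (0.961) and Chst3 (0.959), and for Sod2 Hadha (0.971), Clu (0.969) and Gpnmb (0.966). Nfe2l2 was closest to Psma4 (0.948), LOC103693430 (0.934) and Spg21 (0.934), Hmox1 to Sf3b2 (0.924), Tpm3 (0.922) and Pgm5 (0.92), and Txnrd1 to Hyou1 (0.935), Ankrd52 (0.929) and Parm1 (0.929). Gclc was closest to Cenpf (0.914), Diaph3 (0.91) and Ckap2 (0.905), Gclm to Fam3c (0.898), Polr1b (0.894) and Alcam (0.84), Sod1 to LOC103693375 (0.901), Rpl23a (0.89) and Hnrnph2 (0.887), and Cat to Eif1ax (0.91), Selenoi (0.839) and Heph (0.834). No member was among the 3 closest genes of another. Between members, r was furthest from 0 for Gclc with Sod2 (−0.83) and Nqo1 with Sod2 (−0.82). Next were Nfe2l2 with Sod2 (0.75), Nfe2l2 with Nqo1 (−0.74) and Nqo1 with Gclc (0.72), each over 15 libraries. Other pairs were near 0, such as Sod1 with Cat (0.02).

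The other genes of the pathway were taken from 7 lists with 107 genes, of which 92 were measured. At T14, 18 of the 92 rose and 10 fell (30.4% called, against 17.3% of all genes), with RA 4 rose and 7 fell (12% against 6.39%), and at T7 11 rose and 5 fell (17.4% against 8.73%). DESeq2 called 12 of the 92 at T7 (13% against 6.91% of all genes) and limma-voom 13 (against 7.35%). The T7 count was 9 without T0 replicate 1 (9.78% against 5.66%), and it was 10 without T0 replicate 3 (10.9% against 6.48%) or T7-RA replicate 3 (10.9% against 6.46%). Among the genes with at least 10 counts in every library, 6 of 63 were called for RA (9.52% against 8.48%). The median log2 fold change of the 92 genes was 0.18 at T14 and 0.01 with RA, beside 0.05 and −0.01 over all genes.

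For the lists below, the shares of all genes called are again 17.3% at T14, 8.73% at T7 and 6.39% with RA in edgeR, beside 14.5%, 6.91% and 5.63% in DESeq2 and 15.5%, 7.35% and 6.07% in limma-voom. Counts within a list are small, and those at T7 changed by over 1.5 times in 5 of the 7 lists in some fits that left 1 library out. Of the 12 partners and regulators of NRF2, 2 rose and 2 fell at T14 (33.3% called). Nfe2l1, the related factor NRF1 of proteasome genes, rose by 1.39 (edgeR BH-adjusted p = 1.26e-15), from 273 ± 22 CPM (SD, n = 3) at T0 to 731 ± 21.9 in T14-RA. Mafk, a small MAF partner, fell by 1.36 (edgeR BH-adjusted p = 4.4e-10). At T7, 2 rose and 1 fell (25%). With RA none was called in edgeR, DESeq2 or limma-voom, and 2 had an unadjusted p under 0.05 in edgeR, a cut for which the share of all genes was not computed.

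Among the 25 measured genes of glutathione synthesis, recycling and transfer, 5 rose and 1 fell at T14 (24% called), 3 rose and 1 fell at T7 (16%), and 1 fell with RA (4%). At T7, DESeq2 called 3 of the 25 (12%) and limma-voom 2 (8%), the latter near its share of all genes. With RA both called 2 (8%), so that the list lay below the share of all genes in edgeR and above it in the other tools. The gene lowered by RA was Slc7a11, the cystine carrier that supplies glutathione synthesis (−0.97, edgeR BH-adjusted p = 5.25e-05), at 41.8 ± 8.61 CPM (SD, n = 3) in T14-RA and 18.8 ± 10.4 in T14+RA. Its RA change was not called at day 7 (−0.80, edgeR BH-adjusted p = 0.0154) or at day 14 (−1.26, edgeR BH-adjusted p = 0.00172) alone. Gsta1, a glutathione transferase with close relatives among which reads could be shared, rose by 3.17 at T14 (edgeR BH-adjusted p = 6.29e-10), and the microsomal Mgst2 rose by 1.61 (edgeR BH-adjusted p = 0.000148), a call lost without T0 replicate 3 (1.28, adjusted p = 0.00297). Mgst1 had 0 counts in all T0 libraries and 12, 7 and 12 in T14-RA, at least 2.94-fold higher when T0 is set to 3 counts per library. The median T14 change of this list was 0.34 as fitted and 0.26 with Mgst1 at that bound and Gstt2, at 0 counts in T0 and under the floor in T14-RA, left out.

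Of the 19 thioredoxins, peroxiredoxins and sestrins, 6 rose at T14 (31.6% called), 2 rose at T7 (10.5%), and 2 rose and 1 fell with RA (15.8%). At T14, DESeq2 called 5 of the 19 (26.3%). With limma-voom 3 were called (15.8%), and 3 in edgeR without T0 replicate 3 (15.8% against 14.6% of all genes), both near the share of all genes. Prdx3, the peroxiredoxin of mitochondria, rose by 1.62 at T14 (edgeR BH-adjusted p = 5.91e-13), from 64 ± 15.5 CPM (SD, n = 3) at T0 to 198 ± 12.1 in T14-RA and 209 ± 11.3 in T14+RA. Sesn3 rose by 1.82 (edgeR BH-adjusted p = 7.48e-06) and Sesn1 by 1.72 (edgeR BH-adjusted p = 0.000626), although Sesn1 had 1 to 34 counts per library and lost its call with DESeq2 (adjusted p = 0.00396), limma-voom (0.00211) and in 7 of 15 fits that left 1 library out, most without T0 replicate 2 (0.0104). With RA, Prdx5 rose by 0.65 (edgeR BH-adjusted p = 1.03e-07) and Prdx6 by 0.42 (edgeR BH-adjusted p = 0.000719), the latter without a call in DESeq2 (0.00188), limma-voom (0.00154) and 8 of 15 fits that left 1 library out, with the highest adjusted p (0.00917) without T14+RA replicate 1. Txnip, an inhibitor of thioredoxin, fell by 0.77 with RA (edgeR BH-adjusted p = 2.33e-06). It was at 124 ± 12.3 CPM (SD, n = 3) in T7-RA and 55.3 ± 13.2 in T7+RA, and at 147 ± 13.9 in T14-RA and 108 ± 5.94 in T14+RA. The RA change was called at day 7 (−1.19, edgeR BH-adjusted p = 3.28e-07) and not at day 14 (−0.45, edgeR BH-adjusted p = 0.0384), while the gap of the 2 days was not called (0.74, edgeR BH-adjusted p = 0.168). At T14 Txnip rose by 0.73 (edgeR BH-adjusted p = 0.000352), a call lost in limma-voom (0.00125), with thinned counts (0.00142), against T0 alone (0.00298) and without T0 replicate 1 (0.00104) or 3 (0.00301).

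Among 5 measured genes of superoxide handling, 2 were called at T14 and 2 with RA (40% each) and 1 at T7 (20%). RA lowered Nox4, an oxidase that makes hydrogen peroxide (−1.39, edgeR BH-adjusted p = 3.76e-05), and Xdh, xanthine dehydrogenase (−0.80, edgeR BH-adjusted p = 2.85e-06). Nox4 had 10, 9 and 1 counts in T14+RA against 23, 18 and 13 in T14-RA. At T14 Xdh rose by 1.42 (edgeR BH-adjusted p = 3.68e-09) and Cyba, a shared oxidase subunit, fell by 1.37 (edgeR BH-adjusted p = 1.09e-06), and at T7 1 of the 5, Cyba, fell in edgeR (−0.96, BH-adjusted p = 0.000399). Neither DESeq2 nor limma-voom called that T7 change, nor did the comparison of T7-RA with T0 alone (edgeR BH-adjusted p = 0.00141). Of 9 heme and iron genes, 2 rose and 1 fell at T14 (33.3% called), 1 rose at T7 and 1 rose with RA (11.1% each). DESeq2 and limma-voom both called 2 of the 9 at T7 and 2 with RA (22.2% each), and the T7 call of edgeR was lost without T0 replicate 1. Tfrc, the transferrin receptor, rose with RA (0.95, edgeR BH-adjusted p = 5.52e-07) and at T14 (1.39, edgeR BH-adjusted p = 6.41e-06), Fth1, the ferritin heavy chain, rose at T14 (0.80, edgeR BH-adjusted p = 2.13e-09), and Slc48a1, a heme transporter, fell (−0.65, edgeR BH-adjusted p = 2.91e-05), a call lost without T0 replicate 1 (0.00183).

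Of 8 NADPH producing enzymes, 1 rose and 1 fell at T14 (25% called), 1 rose at T7 (12.5%), and none was called for RA in edgeR, DESeq2 or limma-voom. For RA, 5 of the 8 had an unadjusted p under 0.05 in edgeR, a cut for which the share of all genes was not computed. Idh1, the cytosolic isocitrate dehydrogenase, rose by 1.23 at T14 (edgeR BH-adjusted p = 1.91e-07). Of 14 further xenobiotic response genes, 1 rose and 4 fell at T14 (35.7% called), 2 rose and 2 fell at T7 (28.6%), and 1 rose and 3 fell with RA (28.6%). At T7, DESeq2 called 2 of the 14 and limma-voom 3 (21.4%), and without T0 replicate 3 edgeR called 1 (7.14% against 6.48% of all genes). With RA both other tools called 3 (21.4%). Ephx1, the microsomal epoxide hydrolase, rose by 4.11 at T14 (edgeR BH-adjusted p = 4.06e-22) and was lowered by RA (−0.54, edgeR BH-adjusted p = 0.000119), the latter lost without T7-RA replicate 3 (0.00141) or T14+RA replicate 1 (0.00218). Ptgr1, prostaglandin reductase 1, fell by 1.27 at T14 (edgeR BH-adjusted p = 1.62e-09) and Ugdh, UDP-glucose dehydrogenase, by 1.21 (edgeR BH-adjusted p = 6.76e-09). RA lowered Akr1b8, an aldo-keto reductase (−0.70, edgeR BH-adjusted p = 1.66e-09), and Ptgr1 (−0.57, edgeR BH-adjusted p = 0.000816, not called by DESeq2 at 0.00315, limma-voom at 0.00179 or in 8 of 15 fits that left 1 library out, with the highest at 0.0155 without T7-RA replicate 1). Osgin1, an oxidative stress growth inhibitor, rose with RA by 1.96 (edgeR BH-adjusted p = 1.11e-06), on 1 to 23 counts per library. At day 14 it was at 4.29 ± 2.23 CPM (SD, n = 3) without RA and 22.5 ± 0.95 with RA (2.27, edgeR BH-adjusted p = 0.000221). At day 7 it was at 7.03 ± 2.6 and 23.8 ± 3.2 CPM, a change that was not called (1.72, edgeR BH-adjusted p = 0.00241).

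**Figure D4:**
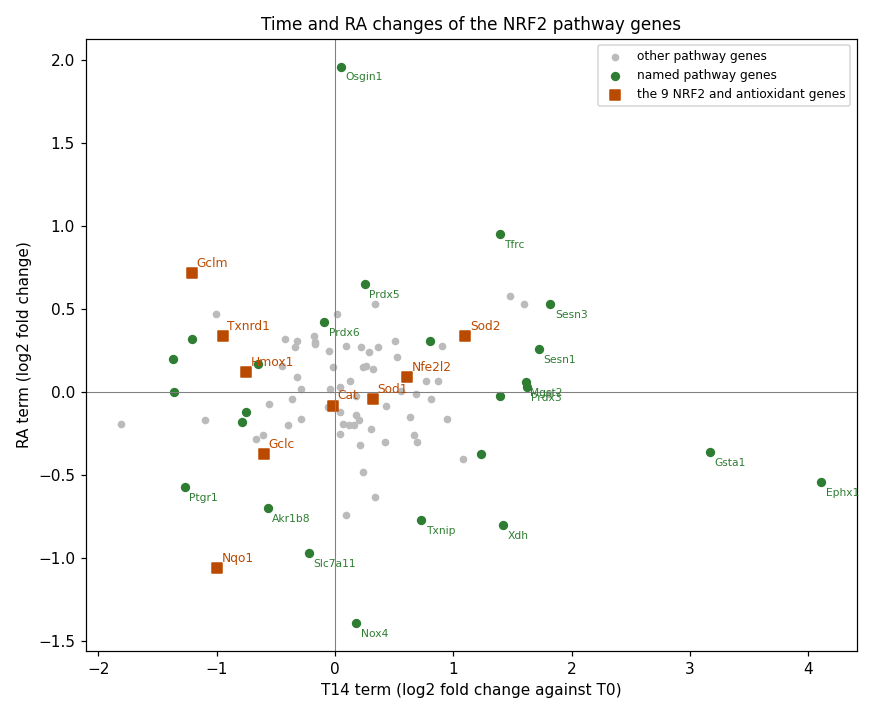
T14 change (horizontal axis) against RA change (vertical axis), both log2 fold changes of the additive model, for the 9 genes (squares), the named pathway genes (dark points) and the other measured genes of the lists (light points). Mgst1 and Gstt2, at 0 counts in all T0 libraries, are left out. Nqo1 sits below 0 on both axes, at −1.06 on the vertical one, and Sod2 at 1.10 and 0.34.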

How the data were processed

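Stranded mRNA libraries of 15 H9c2 cultures were sequenced as paired reads. Per the labels and the paper's methods, the authors trimmed the reads on Galaxy, mapped them with HISAT2 to the rat genome (Rnor 6.0 in the submitters' processing notes), counted them per gene with featureCounts, and deposited raw counts for 11574 genes with more than 20 counts in sum. The sources used here give neither tool versions nor whether reads were counted by strand. The deposited table also holds gene symbols, bands and a gene length.

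Counts were fitted with edgeR 4.0.16 (R 4.3.3; TMM, robust quasi-likelihood F test), as the additive model of the study and as a model of 5 group means. The study used limma. SE is the log2 fold change divided by the root of F, and 95% intervals use the fit's degrees of freedom. P-values were adjusted by the Benjamini-Hochberg method over all genes of a term. Alternatives were DESeq2 1.42.0, limma-voom (limma 3.58.1), other scalings, filters and thresholds, thinned counts, a replicate block and each library left out. The members, lists and tests were chosen with earlier results of these data known. Named pathway genes were those called for RA and, per list, the 3 with the largest T14 change among those called, and some of these are not reported here. Cultures are described as biological replicates, and no replicate pair agreed within sampling noise (chi-square per gene at least 1.07). Scripts were tested on simulated data.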

Additional observations from a re-analysis of the deposited data

Results flagged for a closer look

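Among the 9 members and 92 other pathway genes, the RA change of Gstp1, a glutathione transferase at 1q43 that was singled out after its values were seen, differed between the days by 0.88 (SE 0.153, edgeR adjusted p = 0.000181). RA changed it by 0.08 at day 7 (edgeR adjusted p = 0.805) and by 0.96 at day 14 (edgeR adjusted p = 1.2e-10). Its level was 438, 510 and 494 CPM in T14-RA and 842, 1100 and 859 in T14+RA, against 513, 548 and 517 in T7-RA and 562, 534 and 578 in T7+RA. Reads of close relatives of Gstp1 could have been counted on it.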

How the results depend on the processing

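Nqo1 kept its RA call at both days and its T14 call in all alternatives, and no called change of a named gene changed direction in any of them. At an adjusted p of 0.05, the members called were 6 for T7, 8 for T14, 4 for RA, 2 at each single day and 3 from T7-RA to T14-RA. The other pathway genes called were 35 of 92 for T7 (38%), 39 for T14 (42.4%) and 23 for RA (25%). At this threshold 23.1% of all genes were called for T7, 35.4% for T14, 14.7% for RA, 7.41% at day 7, 11.2% at day 14 and 7.79% from T7-RA to T14-RA. With at least 10 counts in every library, 63 of those 92 genes were tested and 6 were called for RA (9.52%, against 8.48% of the 5931 genes kept). When 1 library was left out, the members called were 1 to 4 for T7 (5.66% to 9.17% of all genes) and 3 to 6 for T14 (13.4% to 17.5%), and the other pathway genes 9 to 18 for T7. Uncalled values changed sign for the T14 change of Cat, with library size only (0.09), with at least 10 counts in every library (0.04) and without 1 library (−0.12 to 0.07). Other uncalled values that did so without 1 library were the day 7 RA change of Nfe2l2 (−0.06 to 0.13), the T7 change (−0.08 to 0.18) and RA difference between days (−0.22 to 0.04) of Gclc, the RA change of Sod1 (−0.06 to 0.01), and for Cat the RA changes at day 7 (−0.16 to 0.04) and day 14 (−0.18 to 0.01) and their difference (−0.14 to 0.07). Library size only moved the median of all genes to 0.13 at T7 and 0.15 at T14. The replicate block gave 3 members called for T7, 5 for T14 and 1 for RA (9.36%, 18% and 6.89% of all genes), and the numbers are not known to pair the cultures (mean correlation of deviations 0.0541 for the same number and −0.027 otherwise). Comparing T7-RA and T14-RA with T0 alone, chosen after seeing the data, called 3 and 4 members. The causes of these changes were not tested.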
